A study of Mus musculus with 4 samples.

Results

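The 8 genes described here encode enzymes that attach ubiquitin to proteins or take it off: the conjugating enzymes Ube2r2 and Ube2h, the ligase genes Rnf20, Wwp1, Rnf19a and Cul2, and the deubiquitinases Usp14 and Usp45. They were taken by symbol from count tables of 56748 gene IDs, and each symbol occurs once. RNA came from lymph nodes of 4 mice in which experimental autoimmune encephalomyelitis (EAE) had been induced, an autoimmune attack on brain and spinal cord that serves as a model of multiple sclerosis. Of the 4, 2 received BrQ (2-bromo-1,4-naphthalenedione, a brominated naphthoquinone) and 2 were controls whose libraries are titled Vehicle. All 4 mice had EAE, so no animal without the disease enters the comparison. Each mouse gave 1 library, numbered 1 and 3 in both groups. The sources used here do not give the strain, age, dose or day of collection.

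Ubiquitin is a small protein that is passed from an activating enzyme to a conjugating enzyme (E2) and then, with the help of a ligase (E3), to a target protein. Chains of ubiquitin can send a target to the proteasome, while single ubiquitins often change what a protein binds or where it goes. Deubiquitinases cut ubiquitin off again. In lymphocytes this system sets the lifetime of signalling proteins downstream of antigen and cytokine receptors.

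The libraries held 6813832 to 7989226 reads in gene intervals, and 86.8% to 88.8% of all read rows lay in no gene interval. For most of the table a gene's name appears to stand beside reads of another place, so the surroundings of each of the 8 genes were examined first. Outside the stretches that hold them, 24.9% of 17838 protein-coding genes on chromosomes 1 to 19 and X averaged at least 50 reads, with a median of 1.25 reads. Inside these stretches 254 of 408 did (62.3%), with a median of 264 reads. The stretches were drawn where at least 40% of 25 neighbouring genes averaged 50 reads, a rule chosen after seeing the data that favours such genes by construction. In GRCm38 coordinates, chr4:3549041-41769474 held Ube2r2, Wwp1 and Usp45, and chr4:41966058-49656887 held Rnf20. Ube2h lay in chr6:28661831-30915573, Rnf19a in chr15:6813577-38692446, and Cul2 and Usp14 in chr18:3266048-10706771. All 8 also lay inside when the share was set at 30%, but Rnf20 and Usp14 did not at 50%. Rnf20 ends its stretch, and 2 of its 12 neighbours within 1 Mb averaged 50 reads. For Ube2r2 this held for 26 of 36 neighbours, for Ube2h for 17 of 31, for Rnf19a for 8 of 13 and for Usp45 for 5 of 9. For Usp14 it held for 6 of 12, for Cul2 for 3 of 5 and for Wwp1 for 3 of 9. That names and reads meet was not shown for each gene.

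The comparison of BrQ with Vehicle asked how transcripts in the lymph node differ after treatment. Usp45, a deubiquitinase of the ubiquitin-specific protease family known for a role in DNA repair, was higher in BrQ, 1.47-fold, and was the only 1 of the 8 to pass the test. The other 7 did not pass, with edgeR's fitted changes from 0.753-fold (Usp14) to 1.27-fold (Rnf19a). Among all 10223 features tested, 45.7% passed at an adjusted p under 0.05 (Benjamini-Hochberg over all features), 23.6% as higher and 22.2% as lower. With edgeR's TMM scaling the count of 1 in 8 is thus below the background share. This did not hold under every scaling. With library size alone 5 of the 8 passed, beside 3603 higher and 1072 lower of 10223 features. A fit on the stretches and the mitochondrial genes alone called 4 of the 8, beside 88 higher and 75 lower of 389. None of the 8 passed as lower with edgeR and TMM, while 2 (Ube2h and Usp14) had an unadjusted p under 0.05. DESeq2 and limma voom also called 1 higher and 0 lower. Over all features DESeq2 called 1737 of 21036 higher and 1761 lower, and limma voom called 2290 and 2189 of 10223. In the stretches themselves 163 of 365 features passed with edgeR and TMM (44.7%). Among those with a mean read count in the range of the 8 genes (421 to 3051 reads), 83 of 160 did (51.9%). The median absolute log2 fold change was 0.29 for the 8 genes, 0.42 for those 160 features and 0.71 for all features. These are bulk libraries, in which fewer cells of a type and less RNA per cell cannot be told apart.

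**Figure D1:**
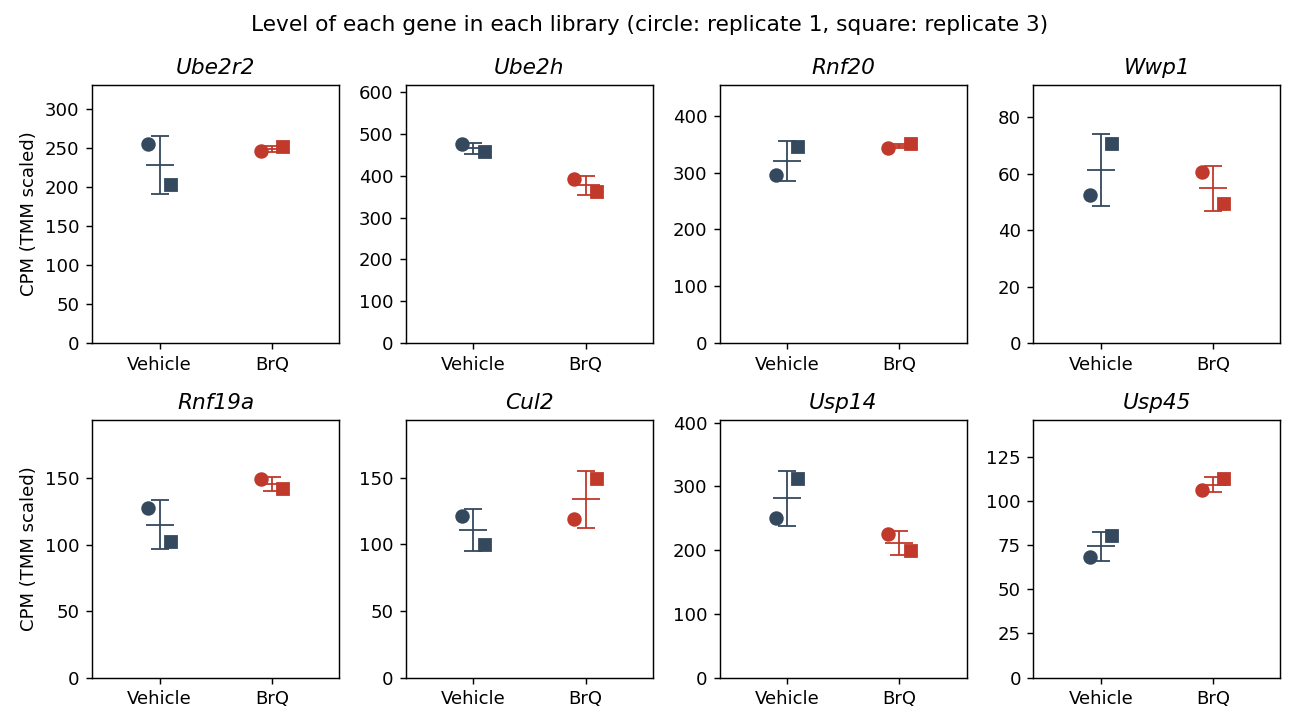
Level of each of the 8 genes in CPM (reads of a gene scaled to library size with TMM factors, linear axes from 0) in the Vehicle and BrQ libraries, with circles for replicate 1, squares for replicate 3, and bars for the mean and SD of 2 mice. Both BrQ libraries of Usp45 (106 and 112 CPM) lie above both Vehicle libraries (68.4 and 80.2 CPM), while the groups overlap for Ube2r2, Rnf20, Wwp1 and Cul2.

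Levels are given as CPM, reads scaled to a library of fixed size with edgeR's TMM factors. Levels between genes were compared per kilobase of annotated exon. Averaged over the 4 libraries, Ube2h stood highest at 88.2 CPM per kb, followed by Ube2r2 at 56.8 and Rnf20 at 45.8. Usp14 (29.5 CPM per kb), Rnf19a (29.4) and Cul2 (29.0) came next, and their ranges over libraries overlapped, so these 3 have no order. Usp45 stood at 14.7 CPM per kb and Wwp1 was lowest. The ranges of Ube2h and Ube2r2 were well apart, from 75.7 to 99.4 and from 48.2 to 60.7. Those of Ube2r2 and Rnf20 (40.6 to 47.9 CPM per kb) came close to touching, as did those of Usp45 (11.0 to 18.0) and Wwp1 (7.62 to 10.9). The lengths count every annotated exon of a gene, so a gene with long rare exons reads too low on this scale. They come from GENCODE M21, and the annotation release used for the counts is not given. The intervals counted may therefore differ from these lengths, which limits the order of the genes.

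Of the conjugating enzymes, Ube2h works with the CTLH ligase complex and is known for its rise during red cell maturation. The gene lies at chr6:30211289-30304539 on the minus strand, in 8 exon blocks. It held 3125 reads in BrQ 1, 2811 in BrQ 3, 3281 in Vehicle 1 and 2985 in Vehicle 3. After scaling, both BrQ libraries (394 and 362 CPM) lay below both Vehicle libraries (475 and 457 CPM). The difference was not called, at a log2 fold change of -0.30 ± 0.13 (SE, adjusted p = 0.0799 with edgeR). On the unscaled reads BrQ 1 lay above Vehicle 3, so the gap between the groups rests on the scaling.

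Ube2r2 is a close relative of Cdc34, the E2 that works with cullin-RING ligases, the family of complexes to which Cul2 belongs. It lies at chr4:41135743-41193380 on the plus strand, in 5 exon blocks. BrQ 1 and 3 held 1947 and 1948 of its reads, Vehicle 1 and 3 held 1754 and 1319. The BrQ mean was 248 ± 3.82 CPM and the Vehicle mean 228 ± 37.0 (SD, n = 2 each), and Vehicle 1, at 254 CPM, was the highest of the 4. It was not called, and the 95% interval of the fold change ran from 0.860 to 1.37.

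Rnf20 forms, with Rnf40, the ligase that places a single ubiquitin on histone H2B in transcribed genes. It lies at chr4:49632006-49656887 on the plus strand, in 21 exon blocks. The count was 2732 for BrQ 1, 2716 for BrQ 3, 2042 for Vehicle 1 and 2252 for Vehicle 3. In CPM the BrQ libraries stood at 344 and 349 and the Vehicle libraries at 296 and 345, so that Vehicle 3 reached the BrQ level. The log2 fold change was 0.12 ± 0.14 (SE, adjusted p = 0.517 with edgeR), and the fold change had a 95% interval from 0.876 to 1.34.

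Rnf19a, also called dorfin, is a ligase of the RING-between-RING type, in which ubiquitin passes through the ligase itself. It lies at chr15:36239933-36283147 on the minus strand. BrQ 1 and 3 held 1186 and 1104 reads, Vehicle 1 and 3 held 884 and 668. Both BrQ libraries (149 and 142 CPM) were above both Vehicle libraries (128 and 102 CPM). The fitted change was 1.27-fold, with a 95% interval from 0.988 to 1.62, and was not called (adjusted p = 0.107 with edgeR). Without Vehicle 1 it passed, at a log2 fold change of 0.49 (adjusted p = 0.0397 with edgeR), with the spread then resting on the 2 BrQ mice, and without Vehicle 3 it stood at 0.17 (adjusted p = 0.427 with edgeR).

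Wwp1 is a ligase of the HECT type, the Nedd4 family, with WW domains that bind proline-rich partners. At chr4:19608303-19708993 on the minus strand it spans 25 exon blocks, and it had the fewest reads of the 8. The counts were 480 in BrQ 1, 382 in BrQ 3, 362 in Vehicle 1 and 460 in Vehicle 3. The groups overlapped in CPM (60.5 and 49.1 in BrQ, 52.4 and 70.4 in Vehicle), with 1 high and 1 low library in each. The log2 fold change was -0.16 ± 0.20 (SE, adjusted p = 0.526 with edgeR).

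Cul2 is the scaffold of the cullin-RING complexes that use VHL and related receptors, among them the one that marks HIF1A for destruction in the presence of oxygen. It lies at chr18:3382988-3436377 on the plus strand, in 23 exon blocks. Its counts were 943 reads in BrQ 1, 1158 in BrQ 3, 840 in Vehicle 1 and 651 in Vehicle 3. BrQ 3 stood at 149 CPM, while BrQ 1 (119 CPM) lay below Vehicle 1 (122 CPM). The fold change of 1.21 had a 95% interval from 0.926 to 1.58 and was not called (adjusted p = 0.216 with edgeR). Its log2 fold change of 0.27 moved to 0.11 without BrQ 3, 0.12 without Vehicle 3, 0.44 without BrQ 1 and 0.40 without Vehicle 1, and none of these passed.

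Usp14 sits on the regulatory particle of the proteasome, where it trims ubiquitin chains from arriving targets. It lies at chr18:9993066-10045119 on the minus strand and held 1787 reads in BrQ 1, 1542 in BrQ 3, 1733 in Vehicle 1 and 2035 in Vehicle 3. In CPM both BrQ libraries (225 and 198) were below both Vehicle libraries (251 and 311). The log2 fold change of -0.41 ± 0.15 (SE) missed the threshold (adjusted p = 0.0526 with edgeR). It passed without Vehicle 1 (-0.58, adjusted p = 0.0153 with edgeR) and with DESeq2's size factors in edgeR (-0.45, adjusted p = 0.0427). It did not pass without Vehicle 3 (-0.26, adjusted p = 0.232 with edgeR), without BrQ 3 (-0.31, 0.325) or without BrQ 1 (-0.49, 0.11). Of its annotated exon bases, 26.0% overlap those of Thoc1 on the opposite strand. Whether the counting used strand is not stated, so reads on that part are uncertain. For the other 7 genes the shared part was at most 2.68% (Rnf19a, with a microRNA gene).

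Usp45 lies at chr4:21767156-21837872 on the plus strand, in 20 exon blocks. It had 843 reads in BrQ 1 and 872 in BrQ 3, against 472 in Vehicle 1 and 524 in Vehicle 3. The groups stood apart on the unscaled reads as well as in CPM, where the BrQ mean was 109 ± 4.25 and the Vehicle mean 74.3 ± 8.34 (SD, n = 2 each). The log2 fold change was 0.56 ± 0.16 (SE, adjusted p = 0.0180 with edgeR's quasi-likelihood test), and the 95% interval of the fold change was 1.15 to 1.88. The call did not hold with every library left out. It was lost without BrQ 1 (adjusted p = 0.0646 with edgeR), without BrQ 3 (0.129) and without Vehicle 1 (0.0738), with log2 fold changes of 0.61, 0.53 and 0.42. It was also lost with no filter on low counts (adjusted p = 0.0618 with edgeR), where 21036 features share the adjustment. Under the 14 alternatives other than the crossed replicate block the sign was the same each time, and the call held in 10.

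In CPM, 4 of the 8 genes (Usp45 and Rnf19a higher, Ube2h and Usp14 lower) had BrQ and Vehicle libraries that did not overlap. That share is below the background: 76.1% of all features tested had ranges that did not overlap.

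The windows of 250 bases before the RefSeq start are shown for Usp45, the gene that passed, and for Ube2h, the most abundant of the 8 per kilobase. Both BrQ libraries of Ube2h were lower in CPM, but its difference was not called (adjusted p = 0.0799 with edgeR). The windows come from RefSeq on GRCm38.p6, 5′ to 3′ on the strand of the gene, at chr4:21776020-21776269 (plus) and chr6:30304540-30304789 (minus). The Ube2h window adjoins the GENCODE gene given above. The windows of Usp45, Ube2r2 and Rnf20 lie inside theirs, since GENCODE begins these genes farther upstream than the RefSeq starts used here. Capitals mark matches, on either strand, to the motifs given after them.
Usp45: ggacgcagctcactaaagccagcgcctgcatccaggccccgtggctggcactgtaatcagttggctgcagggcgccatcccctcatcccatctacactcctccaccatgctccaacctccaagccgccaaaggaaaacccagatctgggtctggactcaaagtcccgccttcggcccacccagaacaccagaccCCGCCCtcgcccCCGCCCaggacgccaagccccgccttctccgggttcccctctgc
Ube2h: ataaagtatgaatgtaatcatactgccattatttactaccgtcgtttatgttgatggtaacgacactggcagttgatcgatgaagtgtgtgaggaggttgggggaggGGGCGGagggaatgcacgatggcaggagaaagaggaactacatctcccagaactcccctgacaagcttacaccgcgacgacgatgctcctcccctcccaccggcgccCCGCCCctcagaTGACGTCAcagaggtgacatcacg
Both windows held 2 GC boxes (GGGCGG, the core bound by Sp1 and KLF factors), a motif found in 32.7% of 32851 RefSeq promoter windows of the same length. The Ube2h window also held 1 cAMP response element (TGACGTCA), found in 1.55% of all windows. Neither held CCAAT (33.8% of all windows), CCGGAAG (an ETS site, 6.91%) or TGACNNNGC (the antioxidant response element bound by Nrf2, 10.2%). Of the 8 genes, 4 were matched in the promoter table: Usp45, Ube2r2, Rnf20 and Ube2h. A second RefSeq start of Ube2h, at chr6:30243804-30244053, and the window of Rnf20 held none of these letters, and that of Ube2r2 held 3 GC boxes. The matches describe letters and show no binding.

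The share of each gene among the reads of all 8, within its own library, does not depend on scaling between libraries. Usp45 took 6.46% and 6.96% of this sum in BrQ 1 and 3, against 4.15% and 4.81% in Vehicle 1 and 3. Usp14 took 13.7% and 12.3% in BrQ against 15.2% and 18.7% in Vehicle. Ube2h took the largest share in every library, 24.0% and 22.4% in BrQ against 28.9% and 27.4% in Vehicle. These 3 shares, and those of Rnf20 and Rnf19a, did not overlap between the groups, and those of Ube2r2, Wwp1 and Cul2 did. A share rises when another falls, so the 8 are not independent. No background was computed for such shares, while in CPM 76.1% of all features tested did not overlap.

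**Figure D2:**
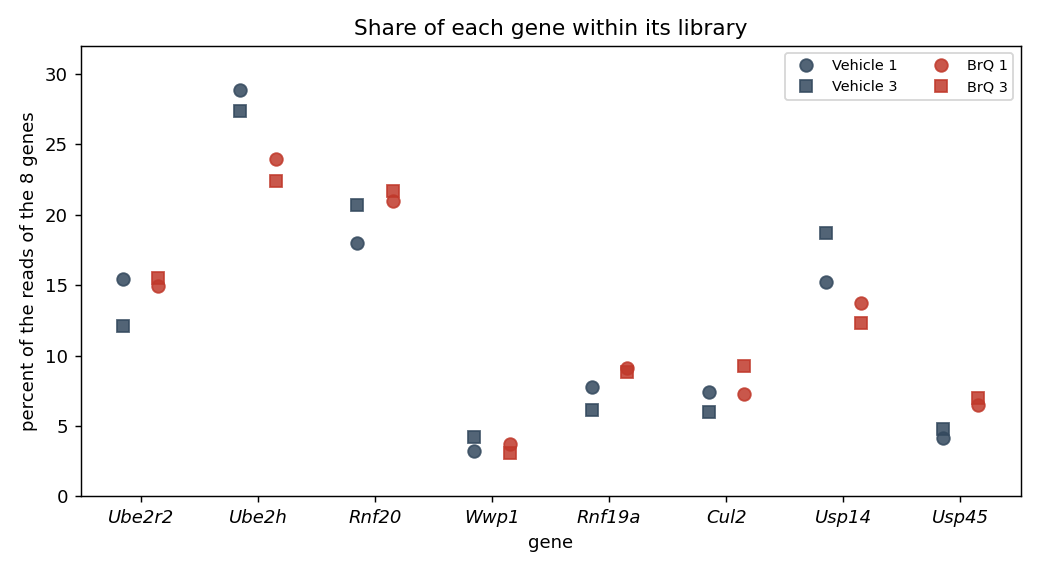
Percent of the reads of the 8 genes that fell on each gene, with blue for Vehicle, red for BrQ, circles for replicate 1 and squares for replicate 3. Usp45 lies between 6.46% and 6.96% in BrQ, above its 4.15% and 4.81% in Vehicle, and Ube2h and Usp14 lie lower in BrQ.

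Of the 28 ratios of reads between 2 of the genes, that of Usp14 to Usp45 differed most between the groups. For each read of Usp45 the libraries held 2.12 and 1.77 reads of Usp14 in BrQ 1 and 3, and 3.67 and 3.88 in Vehicle 1 and 3. On the log2 scale this is a ratio of 0.95 ± 0.18 for BrQ and 1.92 ± 0.06 for Vehicle (SD, n = 2 each), and the groups differed by -0.96. A two-sided exact permutation test gave p = 0.33, the smallest that 2 mice against 2 allow, so no such ratio can pass. This pair was picked after the ratios were seen. For each read of Usp45 the reads of Ube2h came to 3.71 and 3.22 in BrQ and 6.95 and 5.70 in Vehicle. Those of Rnf20 came to 3.24 and 3.11 in BrQ and 4.33 and 4.30 in Vehicle, with both groups even. Of all 28 ratios, 17 did not overlap between groups, and of the 7 with Usp45, 5 did not, a similar share. Those of Usp45 to Rnf19a and Cul2 overlapped. The 28 ratios reuse the same genes, so they are not independent. No background was computed for ratios between other genes, while in CPM 76.1% of all features tested did not overlap. Whether 17 of 28 exceeds what other genes would give was therefore not tested.

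By the root mean square difference of log2 CPM around each gene's mean over the 4 libraries, Ube2r2 and Rnf19a were each other's nearest pattern (0.11). Usp14 and Wwp1 were likewise (0.14). The nearest to Cul2 was Ube2r2 (0.13), and the nearest to Ube2h was Usp14 (0.14). Usp45 was farthest from its nearest gene, Rnf20, at 0.22. With 4 libraries no correlation was computed.

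The scaling between libraries moved every one of these genes. Summed over the 8, TMM-scaled levels were 1643 and 1612 CPM in BrQ 1 and 3 and 1647 and 1667 CPM in Vehicle 1 and 3. Scaled to gene reads alone, without TMM factors, the CPM sums were 1865 and 1839 in BrQ and 1554 and 1364 in Vehicle. The mitochondrial part of gene reads was 15.8% for BrQ 1, 12.1% for BrQ 3, 20.6% for Vehicle 1 and 30.3% for Vehicle 3, and its role in this gap was not tested. Against TMM, library size alone raised log2 fold changes by a median of 0.37 over all features, and library size from all read rows by 0.21. A fit on the stretches and the mitochondrial genes alone tested 389 features and raised these by a median of 0.23. The calls over all features were 2409 higher and 2267 lower with TMM, 3603 and 1072 with library size alone, and 3060 and 1587 with all read rows. With the fit on the stretches and mitochondrial genes, 88 of the 389 features were called higher and 75 lower.

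With library size alone, 5 of the 8 genes passed as higher: Usp45 (log2 fold change 0.93), Rnf19a (0.70), Cul2 (0.64), Rnf20 (0.49) and Ube2r2 (0.48). With all read rows 3 did (Usp45, Rnf19a and Cul2), and with the fit on the stretches and mitochondrial genes 4 did, these 3 and Rnf20. Usp45 passed under each of these scalings. Under library size alone Usp14 stood at -0.03 and Ube2h turned from -0.30 to 0.06. 

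**Figure D3:**
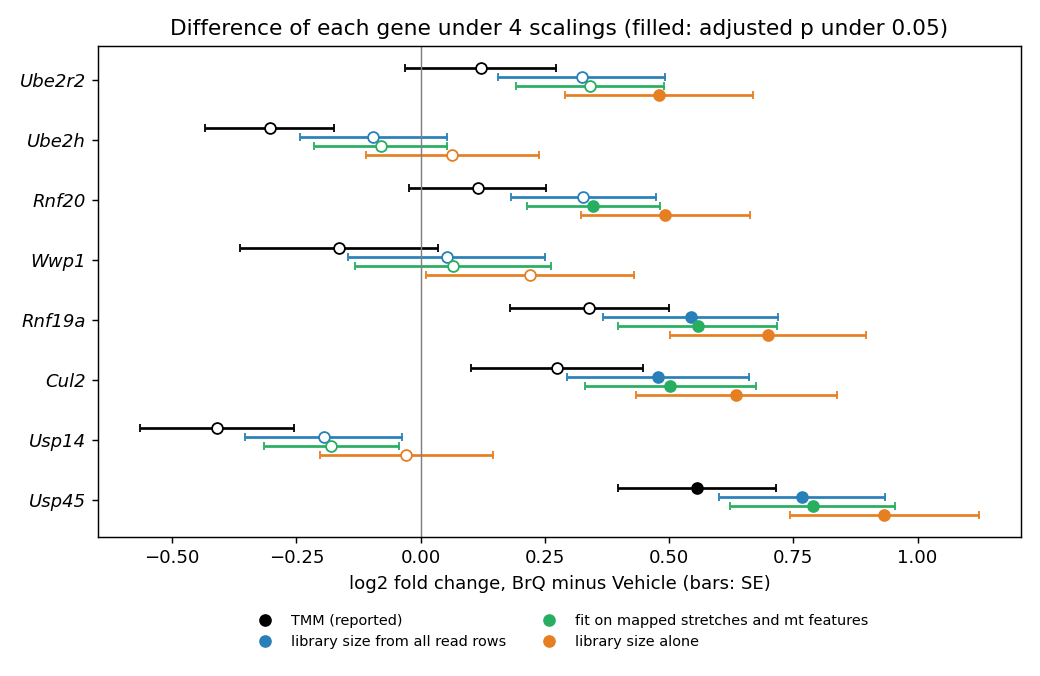
Log2 fold change of each gene, BrQ minus Vehicle, with its SE, under TMM and 3 other scalings; filled points have an adjusted p under 0.05 with edgeR. Usp45 is filled under all 4, from 0.56 with TMM to 0.93 with library size alone, and Ube2h and Wwp1 lie on both sides of 0.

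Other ubiquitin genes were taken from a list of 27 symbols, of which 22 lay in the stretches and 20 had enough reads to be tested. Of these 20, 5 passed, 3 higher and 2 lower, below the 44.7% of all features in the stretches. Marchf6, a ligase in the membrane of the endoplasmic reticulum, had 2147 reads in BrQ 1, 2077 in BrQ 3, 1283 in Vehicle 1 and 1275 in Vehicle 3 (log2 fold change 0.50 ± 0.13 SE, adjusted p = 0.0138 with edgeR). Otud6b, a deubiquitinase of the OTU family, rose by 0.53 (adjusted p = 0.0457 with edgeR), from 51.7 ± 6.42 to 74.5 ± 14.3 CPM. Trim14, an adaptor in antiviral signalling, rose by 1.78 on the log2 scale (adjusted p = 0.000285 with edgeR). Ubap2, a protein with a ubiquitin-associated domain, fell by 0.73 (adjusted p = 0.00190 with edgeR), and Nfx1, a RING finger protein, fell by 0.45 (adjusted p = 0.0321 with edgeR). Over the 14 alternatives none of these 5 changed sign. Trim14 passed in all 14, Ubap2 in 13 and Marchf6 in 12, lost without BrQ 1 and without BrQ 3. Otud6b and Nfx1 passed in 6 each. The median log2 fold change was -0.11 over the 20 genes, 0.12 over the 8, -0.23 over all features in the stretches and 0.05 over all features tested.

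**Figure D4:**
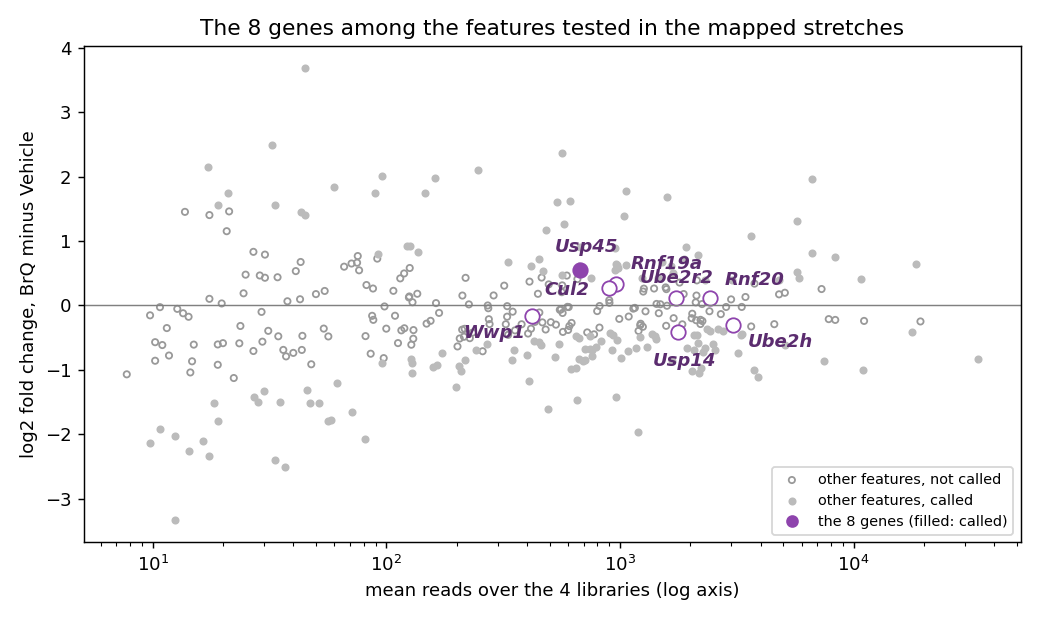
Log2 fold change, BrQ minus Vehicle, against the mean reads over the 4 libraries (log axis) for the 365 features tested in the stretches, with filled points for an adjusted p under 0.05 and the 8 genes named. The 8 genes lie between -0.41 and 0.56, and Usp45 is the one filled point among them.

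Lymphocyte markers in the stretches were read in all 4 libraries. The B cell genes Pax5 and Cd72 stood at 1031 to 1096 and 1023 to 1038 CPM in BrQ, and at 1233 to 1251 and 2011 to 2129 CPM in Vehicle. The T cell genes Il7r and Sit1 stood at 516 to 605 and 76.2 to 80.9 CPM in BrQ, and at 810 to 898 and 123 to 146 CPM in Vehicle. In TMM-scaled CPM all 4 were thus lower in both BrQ libraries, but scaled to gene reads alone Pax5 was higher there (1170 and 1251 CPM against 1164 and 1024) while the other 3 kept their order. Their part in the values of the 8 genes was not tested. The stroma gene Ccl21a and the adipocyte gene Lep held 0 reads in all 4 libraries, and Ccl19 held 27, 8, 5 and 0 reads in BrQ 1, BrQ 3, Vehicle 1 and Vehicle 3. Whether these names stand beside their own reads was not shown, inside the stretches too. The low counts therefore do not show that stroma or fat was absent.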

How the data were processed

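Each mouse has 1 deposited table of raw counts of reads for every gene ID. Trim Galore 0.6.2, HISAT2 2.1.0, HTSeq 0.11.2 and mm10 are named in the submitters' processing notes. The sources used here give neither the annotation release nor the strand setting. The 5 rows that name no gene (87.0% to 89.0% of all read rows) were left out of tests. Positions and exon lengths came from GENCODE M21 on GRCm38 (52073 of 56748 IDs). All 4 libraries were fitted with edgeR 4.0.16 (quasi-likelihood, TMM, filterByExpr) in R 4.3.3 with group as the only term, over all features, adjusting p by Benjamini and Hochberg (threshold 0.05). CPM use TMM factors; 95% intervals use the test's degrees of freedom. The alternatives included other scalings and filters, DESeq2 1.42.0, limma voom 3.58.1, a replicate block and each library left out. The fit was tested on simulated counts, but that outcome is not given here and no result rests on it. All 8 genes are named, with the other ubiquitin genes past the threshold. The 8 genes and the lists were chosen with earlier results of these data known. Replicate libraries differed beyond sampling noise (chi-square per degree of freedom 13.9 in BrQ, 31.1 in Vehicle), so none was a copy. With 2 mice per group, the p-values rest on the spread among these mice only. For each gene, edgeR combines its own spread with that of the other features tested, most of whose names appear displaced. Figures were drawn with matplotlib 3.10.9.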

Additional observations from a re-analysis of the deposited data

Results flagged for a closer look

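Reads in no gene interval lie outside the counts compared here and took a larger share of all read rows in BrQ than in the controls. Their share of all read rows averaged 88.7% in BrQ (88.6% and 88.8%) and 87.3% in Vehicle (87.8% and 86.8%). These reads carry no gene name, so none can be assigned to the 8 genes. The mitochondrial part of gene reads was lower in BrQ (15.8% and 12.1%) than in Vehicle (20.6% and 30.3%). Its part in this gap, and that of names displaced from their reads, was not tested.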

How the results depend on the processing

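In the reported comparison 1 of the 8 genes was called higher in BrQ and 0 lower, and of the other ubiquitin genes 3 were higher, and 2 fell. With library size alone the calls were 5 and 0 for the 8 genes and 8 and 0 for the others, with 0 and 1 lower at an unadjusted p under 0.05. With library size from all read rows they were 3 and 0, and 5 and 1. With the fit on the stretches and mitochondrial features alone they were 4 and 0, and 6 and 1. With no low count filter edgeR called 0 of the 8, with 1 higher and 1 lower at an unadjusted p under 0.05, and 1 of the others was lower. Of all 21036 features in that fit, 1307 were called higher and 1174 lower. With DESeq2's size factors in edgeR 1 of the 8 was called lower, beside 2397 of all 10223 features. Leaving out 1 library gave 0 (without BrQ 1 or BrQ 3) to 1 of the 8 higher and 0 to 1 (without Vehicle 1) lower, and 1 (without BrQ 1 or BrQ 3) to 3 of the others higher and 1 to 4 (without Vehicle 1) lower; a group is then 1 mouse, assumed to vary like the other group. Calls over all features were also fewer with any library left out than with every library kept, and fewest without BrQ 3. Calls lost among the 8 in these fits are therefore not particular to them. Stretches drawn at a share of 30% and of 50%, chosen after seeing the data, gave 5 and 1 of the others higher. Signs changed in 7 cases, none of them called. On the log2 scale Wwp1 went to 0.220 with library size alone, 0.0526 with all read rows and 0.0657 with the stretches fit, and it ranged from -0.38 to 0.0506 with 1 library left out (Vehicle 1 and Vehicle 3). Ube2h went to 0.0642 with library size alone. With 1 library left out Rnf20 ranged from -0.0154 (without Vehicle 1) to 0.22 and Ube2r2 from -0.0493 (without Vehicle 3) to 0.27. The cause was not tested. The labels do not tie the replicate numbers to a shared batch. With the replicate number as a block, 1 of the 8 was higher and 0 lower, and of the others 1 was lower. Over all 10223 features that block gave 2222 higher and 1968 lower. The differences between replicates 1 and 3 had a correlation of -0.23 between groups. With crossed numbers as the block, chosen after seeing the data, 1 of the 8 was higher and 2 lower. Over all 10223 features the crossed block gave 2718 higher and 2566 lower. The stretches rule limits each value, since a name on the wrong reads would pass unseen.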
